A study of Mus musculus with 6 samples.

Results

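The genes described here are 56 genes of the mitotic spindle, the kinetochore and the passage from G2 into mitosis. They were taken from 20405 genes with a symbol on the array. The choice was by name and not by measured value, but earlier results of these data were known when it was made. All 56 symbols were found, and where a gene had several probe sets the one brightest on average across the 6 arrays was taken. RNA came from 2 cell lines of FVB/N mouse ovarian surface epithelium (OSE), the single layer of cells that covers the ovary, each on 3 arrays that the labels call biological replicates. M0505 was the early passage line, and STOSE was the spontaneously transformed line that arose from M0505 on long-term passage, with both kept in the same MOSE medium and neither described as carrying an introduced gene. Each line is a single line of common descent and the study found altered chromosome numbers in both, so p-values measure the spread between replicate samples of these lines and not between animals. The comparison asks how the transformed cells differed from their parent in the genes that carry out cell division.

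Entry into mitosis is driven by Cdk1 bound to a B-type cyclin, and is released when Cdc25 phosphatases remove inhibitory phosphates from the kinase. Kinetochores, assembled on centromeres, then attach chromosomes to spindle microtubules, and the spindle assembly checkpoint holds back Cdc20, the activator of the anaphase-promoting complex (APC/C), until every chromosome is attached. Transcripts of many of these genes are known to peak in G2 and mitosis, under B-Myb, FoxM1, NF-Y and the MuvB complex. From RNA of a whole culture alone, a larger share of cells in mitosis and more RNA per mitotic cell therefore cannot be told apart. By flow cytometry the study reported a prominent, putative G2/M peak in M0505. In STOSE cells it reported a small G2/M population and a larger share of cells in S phase. It also found near-tetraploid cells among the M0505 karyotypes, and a shorter doubling time of STOSE cells. How these findings bear on the RNA values was not tested.

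NF-Y binds the CCAAT box and MuvB binds the cell cycle homology region, with the words TTTGAA or TTTAAA, and these words were searched for in the RefSeq promoters of the members (GRCm38.p6, 250 bases before to 50 after the start). A promoter was listed for 48 of the 56 genes. *Cdc25c*, *Foxm1*, *Aurkb*, *Incenp*, *Spc24*, *Kif20a*, *Tpx2* and *Smc4* had no entry. In 11 of the 48, both words lay within the 100 bases before the start, and 5 of these 11 are shown, namely those with the largest changes between the lines (*Cdc20* and *Espl1*), those with the smallest (*Bub3* and *Cdk1*), and *Ccnb1*, which lay at the 2-fold threshold. Each is written 5′ to 3′ on the strand of the gene and ends at the base before the start, and capitals mark the CCAAT box (ATTGG where it reads on the other strand) and the cell cycle homology region (TTCAAA where TTTGAA reads on the other strand). The stretches lie at chr4:118437344-118437443 (minus strand) for *Cdc20*, chr15:102296193-102296292 (plus strand) for *Espl1*, chr13:100786487-100786586 (minus strand) for *Ccnb1*, chr7:131560270-131560369 (plus strand) for *Bub3* and chr10:69352913-69353012 (minus strand) for *Cdk1*. The table lists several promoters for 4 of the members, *Bub3* among them with 2, and the first listed was used.
Cdc20: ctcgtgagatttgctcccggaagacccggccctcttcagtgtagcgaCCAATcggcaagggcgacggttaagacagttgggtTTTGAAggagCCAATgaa
Espl1: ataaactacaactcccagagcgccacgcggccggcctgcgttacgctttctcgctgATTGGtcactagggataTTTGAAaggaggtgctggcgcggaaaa
Ccnb1: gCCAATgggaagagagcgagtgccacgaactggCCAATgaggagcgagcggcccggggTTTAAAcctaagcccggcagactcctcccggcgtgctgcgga
Bub3: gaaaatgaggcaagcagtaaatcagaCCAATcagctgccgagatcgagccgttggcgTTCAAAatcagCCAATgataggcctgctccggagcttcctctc
Cdk1: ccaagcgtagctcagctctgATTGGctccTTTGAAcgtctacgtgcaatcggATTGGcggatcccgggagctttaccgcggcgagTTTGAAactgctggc

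Values are RMA expression values on the log2 scale, on which a difference of 1 is a 2-fold difference. A gene was called when its limma adjusted p was under 0.05 and its change at least 2-fold. Over all 20405 genes, 4.9% were called higher in STOSE and 7.59% lower, a balance that turned to 7.18% higher and 5.77% lower with each array centred on its median. Of the 56 mitotic genes, 31 rose in STOSE cells (55.4%), 0 fell and 25 were not called. Their median log2 fold change was 1.07, a linear fold change of 2.10, with the middle 50% of the genes between 0.75 and 1.31, beside a median of 0.08 over all genes. At 1.5-fold 49 of the 56 were called higher, where 11% of all genes were higher and 14.1% lower, and at 3-fold 5, where 1.59% were higher and 3.66% lower. All 56 log2 fold changes were above 0, and the smallest was that of *Cdk1*.

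At the adjusted p alone, without the fold threshold, 55 of the 56 genes were higher in STOSE cells and 0 lower, where 31.6% of all genes were higher and 24.8% lower. In the same 55 genes every STOSE array lay above every M0505 array, a pattern found in 37.6% of all genes. An exact permutation test of 3 arrays against 3 cannot give a two-sided p below 0.1, so the adjusted p-values rest on the spread that limma shares over genes, and the number of arrays limits the precision. No member was under the background level of 4.72, the 95th percentile of olfactory receptor probe sets, in either line.

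**Figure D1:**
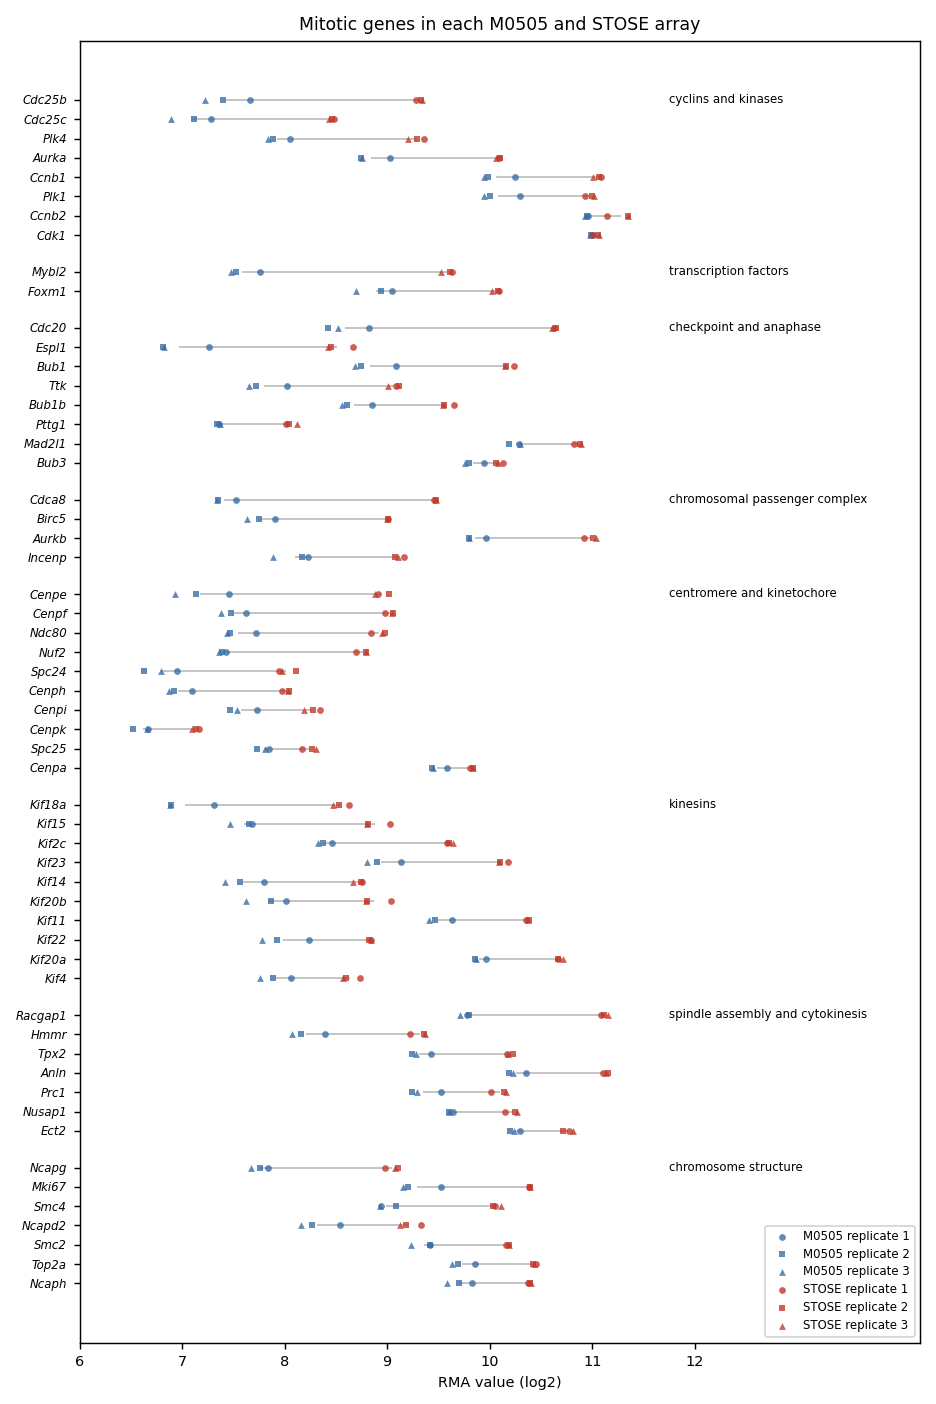
RMA value (log2) of each of the 56 genes on each array, grouped by role; blue marks are the 3 M0505 arrays, red marks the 3 STOSE arrays, and grey lines join the means of the lines. In 55 genes the red marks lie to the right of all blue marks, and in *Cdk1* they overlap.

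Of the 8 cyclins, kinases and phosphatases of mitotic entry, 4 rose and 4 were not called, with a median log2 fold change of 1.12. *Cdk1*, the kinase at the centre of mitotic entry, read 11.01, 10.99 and 10.97 on the M0505 arrays and 11.00, 11.06 and 11.06 on the STOSE arrays. The arrays of the lines overlapped, and the difference of 0.05 (standard error, SE, 0.05, limma adjusted p = 0.46) had a 95% interval from -0.08 to 0.18. *Ccnb2*, a B-type cyclin partner of Cdk1, read 10.96, 10.95 and 10.93 in M0505 and 11.15, 11.34 and 11.35 in STOSE cells. Here the lines did not overlap, but the difference was only 0.33 (SE 0.07, adjusted p = 0.0037).

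*Cdc25b* and *Cdc25c*, the genes on the list for phosphatases that activate Cdk1, differed far more. *Cdc25b* read 7.66, 7.40 and 7.22 in M0505 and 9.29, 9.33 and 9.34 in STOSE cells, a 3.72-fold rise (log2 fold change 1.89, SE 0.11, adjusted p = 1.58e-06). The STOSE arrays lay close together and the M0505 arrays were spread over a wider range. *Cdc25c* rose 2.57-fold, from 7.10 ± 0.20 to 8.46 ± 0.02 (mean ± SD, n = 3). *Plk4*, the kinase of centriole duplication, rose 2.56-fold and *Aurka*, a kinase of the spindle poles, rose 2.37-fold.

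*Ccnb1*, the other B-type cyclin, lay at the threshold. It read 10.25, 9.98 and 9.95 in M0505 and 11.09, 11.06 and 11.01 in STOSE cells, a 1.99-fold difference (log2 fold change 0.99, SE 0.09, adjusted p = 2.01e-05). The array carries 3 probe sets for it, and the other 2 gave 2.06-fold each, so that its place just under 2-fold depends on the probe set. The sources used here do not say whether each of the 3 detects only *Ccnb1*. *Plk1*, which acts from mitotic entry to cytokinesis, was 1.86-fold higher at an adjusted p of 6.39e-05.

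Both transcription factors on the list rose. *Mybl2*, which encodes B-Myb, read 7.76, 7.53 and 7.47 in M0505 and 9.64, 9.61 and 9.53 in STOSE cells. The lines lay far apart relative to their spread, with a 4.01-fold rise (log2 fold change 2.00, SE 0.08, adjusted p = 3.48e-07). *Foxm1* read 9.04, 8.94 and 8.70 in M0505 and 10.09, 10.08 and 10.03 in STOSE cells, a smaller rise of 2.25-fold (log2 SE 0.09, adjusted p = 1.01e-05).

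Among 8 genes of the spindle assembly checkpoint and of anaphase, 4 rose and 4 were not called, with a median log2 fold change of 1.09. *Cdc20* read 8.82, 8.42 and 8.52 in M0505 and 10.63, 10.65 and 10.61 in STOSE cells. It rose 4.12-fold (log2 fold change 2.04, SE 0.10, adjusted p = 8.23e-07), and the STOSE arrays were nearly equal. *Espl1* encodes separase, the protease that opens the cohesin ring at anaphase, and read 7.26, 6.82 and 6.82 in M0505 and 8.67, 8.45 and 8.42 in STOSE cells, which is 2.92-fold higher. *Pttg1*, which encodes the separase inhibitor securin, differed less, at 1.62-fold (adjusted p = 1.43e-05).

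The checkpoint kinases rose, *Bub1* by 2.54-fold and *Ttk* by 2.41-fold. The checkpoint proteins without a called change were *Bub1b* at 1.88-fold, *Mad2l1* at 1.53-fold and *Bub3* at 1.19-fold. *Bub3*, whose product carries Bub1 and BubR1 to kinetochores, read 9.95, 9.80 and 9.76 in M0505 and 10.13, 10.06 and 10.08 in STOSE cells. Its arrays did not overlap between the lines, though the lowest STOSE array was near the highest M0505 array (log2 fold change 0.25, SE 0.07, adjusted p = 0.012).

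All 4 genes of the chromosomal passenger complex, which corrects faulty attachments of chromosomes to the spindle and then acts in cytokinesis, rose. *Cdca8*, which encodes borealin, showed the largest change of the 56 genes. It read 7.53, 7.35 and 7.34 in M0505 and 9.46, 9.48 and 9.47 in STOSE cells, a 4.19-fold rise (log2 fold change 2.07, SE 0.07, adjusted p = 8.86e-08). *Birc5*, which encodes survivin, rose 2.37-fold, and *Aurkb*, the kinase of the complex, rose 2.19-fold. *Incenp*, its scaffold, read 8.22, 8.17 and 7.89 in M0505 and 9.17, 9.08 and 9.10 in STOSE cells, which put it just past the threshold at 2.03-fold. Its log2 fold change was under 1 without M0505 replicate 3 (0.92) or without STOSE replicate 1 (0.99).

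**Figure D2:**
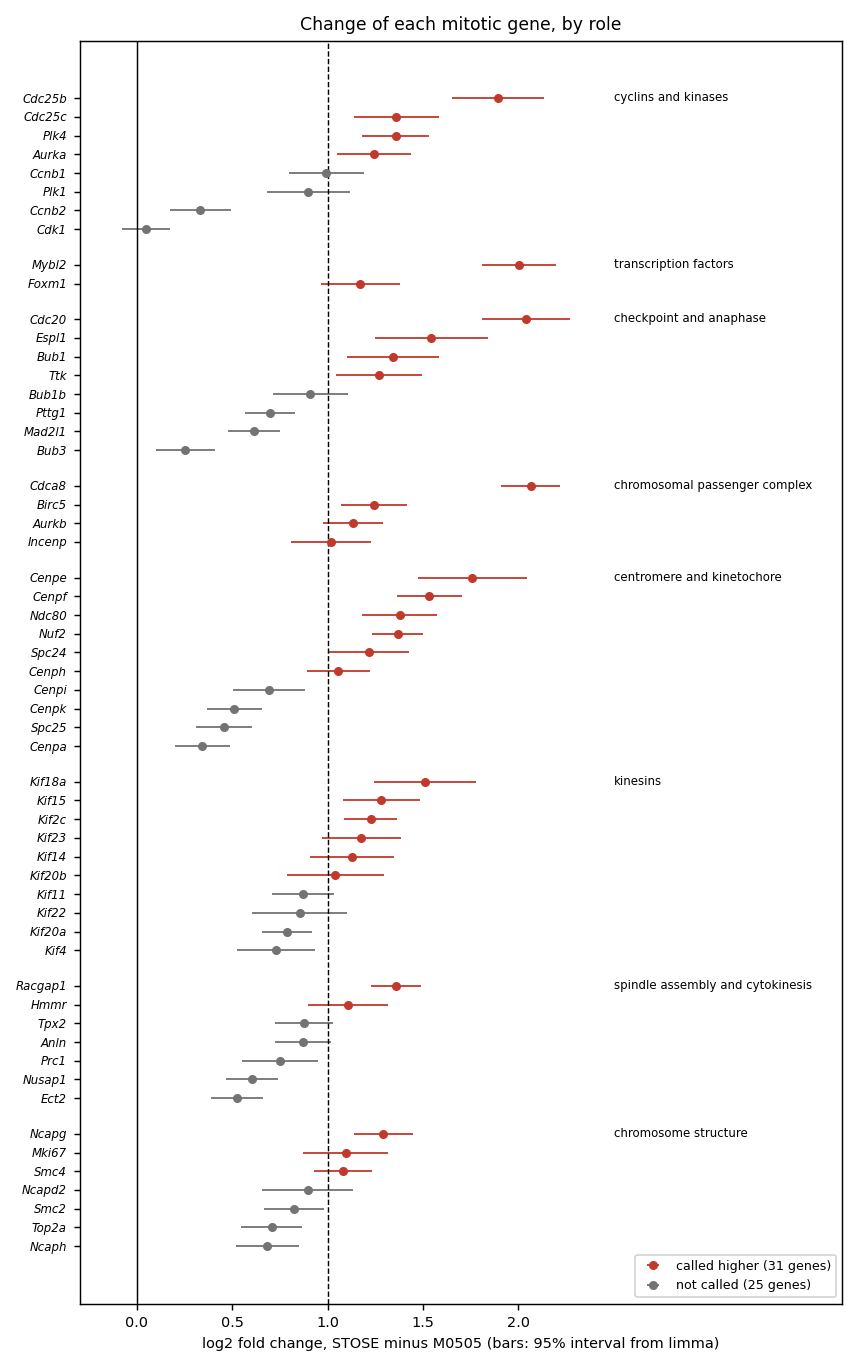
Log2 fold change (STOSE minus M0505) of each of the 56 genes with its 95% interval from limma, by role; red marks the 31 genes called higher, grey the 25 not called, and the dashed line 2-fold. Changes run from 0.05 (*Cdk1*) to 2.07 (*Cdca8*), and the *Cdk1* interval alone includes 0.

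Of 10 genes of the centromere and kinetochore, 6 rose, with a median log2 fold change of 1.14. *Cenpe*, a kinesin that moves chromosomes to the spindle equator, read 7.46, 7.14 and 6.93 in M0505 and 8.91, 9.02 and 8.88 in STOSE cells, a 3.39-fold rise (log2 SE 0.12, adjusted p = 5.83e-06). *Cenpf*, a large protein of the outer kinetochore, rose 2.90-fold and *Cenph*, a subunit of the inner kinetochore, 2.08-fold.

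The 4 subunits of the Ndc80 complex, which binds the microtubule end, did not move by equal amounts. *Ndc80*, *Nuf2* and *Spc24* rose by 2.60-fold, 2.58-fold and 2.32-fold. *Spc25* read 7.84, 7.73 and 7.81 in M0505 and 8.17, 8.27 and 8.31 in STOSE cells, a 1.37-fold difference whose 95% interval on the log2 scale, from 0.31 to 0.60, lay below those of the other subunits. The interval of *Ndc80* ran from 1.18 to 1.58 and that of *Spc24* from 1.01 to 1.43, and no test between genes was run.

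*Cenpa*, the histone H3 variant that marks the centromere, read 9.58, 9.44 and 9.44 in M0505 and 9.81, 9.84 and 9.84 in STOSE cells. That is a 1.27-fold difference (adjusted p = 0.00166), the smallest among these 10 genes. The inner kinetochore genes *Cenpi* and *Cenpk* were 1.62-fold and 1.43-fold higher, also short of the threshold.

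The 10 kinesins had a median log2 fold change of 1.08, and 6 of them rose. *Kif18a*, which limits the length of kinetochore microtubules, read 7.31, 6.89 and 6.88 in M0505 and 8.62, 8.53 and 8.47 in STOSE cells, a 2.85-fold rise (log2 SE 0.12, adjusted p = 9.81e-06). *Kif15*, which helps to keep spindles bipolar, rose 2.43-fold, *Kif2c*, a microtubule depolymerase, 2.34-fold, and *Kif23*, a motor of the central spindle, 2.26-fold. *Kif14* rose 2.18-fold and *Kif20b* 2.06-fold, both of them motors of cytokinesis. For *Kif14* the array has a second probe set that read between 2.85 and 3.29 on all arrays, under the background level, and with the mean of both probe sets its log2 fold change was 0.67. *Kif20b* was under 2-fold without M0505 replicate 3 (0.94) or without STOSE replicate 1 (0.96).

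Among the kinesins not called, *Kif11*, the motor that pushes the spindle poles apart, was 1.83-fold higher. *Kif22* and *Kif4*, motors that sit on chromosomes, were 1.81-fold and 1.66-fold higher, and *Kif20a*, a motor of cytokinesis, was 1.73-fold higher. *Kif4* had the smallest change of the 10, reading 8.07, 7.89 and 7.76 in M0505 and 8.73, 8.60 and 8.57 in STOSE cells, without overlap.

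Spindle assembly and cytokinesis genes were mostly under 2-fold, with 2 of 7 called and a median log2 fold change of 0.87. *Racgap1*, the partner of Kif23 in the central spindle, read 9.78, 9.79 and 9.71 in M0505 and 11.09, 11.11 and 11.16 in STOSE cells. Both lines showed little spread, and the rise was 2.57-fold (log2 SE 0.06, adjusted p = 3.64e-07). *Hmmr*, which acts at spindle poles, rose 2.16-fold. *Tpx2*, the activator of Aurka, and *Anln*, the anillin of the cleavage furrow, were both 1.83-fold higher and were not called. *Prc1*, which bundles the microtubules of the central spindle, was 1.68-fold and *Nusap1*, which stabilizes spindle microtubules, 1.52-fold higher. *Ect2*, which activates RhoA at the furrow, read 10.30, 10.19 and 10.23 in M0505 and 10.77, 10.72 and 10.81 in STOSE cells, a 1.44-fold difference (adjusted p = 9.96e-05).

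Of 7 genes of chromosome structure, 3 rose, and the median log2 fold change was 0.90. *Mki67*, the source of the Ki-67 antigen used to count cycling cells, read 9.53, 9.21 and 9.15 in M0505 and 10.38, 10.39 and 10.39 in STOSE cells, a 2.14-fold rise (log2 SE 0.10, adjusted p = 2.35e-05). Condensin I subunits, which compact chromosomes, were spread around the threshold. *Ncapg* read 7.84, 7.76 and 7.67 in M0505 and 8.98, 9.10 and 9.07 in STOSE cells and rose 2.45-fold, and *Smc4* rose 2.12-fold. The other 3 subunits were not called, *Ncapd2* at 1.86-fold, *Smc2* at 1.77-fold and *Ncaph* at 1.61-fold.

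*Top2a*, the topoisomerase that untangles sister chromatids, was 1.63-fold higher (adjusted p = 4.34e-05). Of its 2 other probe sets, both under the background level, one gave a log2 fold change of 0.44 and the other 1.16, against 0.71 for the one used.

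Between replicate arrays the mitotic genes varied together in M0505 and little in STOSE cells. M0505 replicate 1 was the highest M0505 array in 51 of the 56 genes (91.1%), where it was the highest in 36.5% of all genes. The median over the 56 genes was 8.50 on M0505 replicate 1 and 8.32 and 8.24 on replicates 2 and 3, and 9.61, 9.58 and 9.54 on the STOSE arrays. M0505 replicate 1 thus stood above the other M0505 arrays by a small part of the distance to the STOSE arrays. Its excess over the mean of replicates 2 and 3 had a median of 0.20 and was above 0 in 55 genes. The median SD of the 56 genes was 0.129 in M0505 and 0.044 in STOSE cells, against 0.082 in both lines over all genes.

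**Figure D3:**
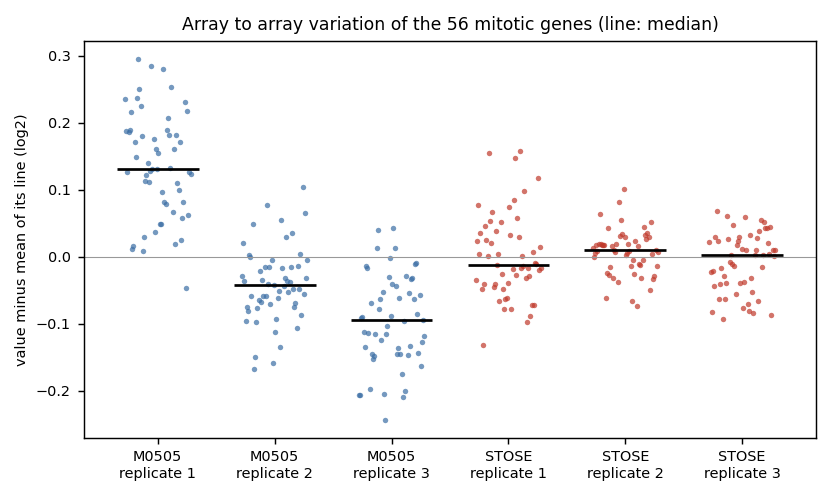
Value of each of the 56 genes on each array minus the mean of its line (log2); points are genes and black lines medians. Most points of M0505 replicate 1, the highest M0505 array in 51 genes, lie above 0, while the medians of the STOSE arrays lie close to 0.

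Genes with a larger excess on M0505 replicate 1 also had larger changes between the lines (Pearson r = 0.50, Spearman rho = 0.49 across the 56 genes). Both measures use the M0505 arrays and genes are not independent replicates, so these values are a description. Without that array, 34 genes rose and the median log2 fold change was 1.13.

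The size of the change went with the level of the probe set. The 28 genes with the lower mean levels had a median log2 fold change of 1.26, with 21 called, and the 28 with the higher levels 0.87, with 10 called. Array levels of different genes are not on a common scale, so this split orders probe sets rather than transcripts.

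Since the study found altered chromosome numbers in both lines, the median change of each gene's chromosome was taken into account. The study also described terminal deletions in M0505 cells and a terminal addition in STOSE cells. A median over a whole chromosome does not correct for changes to part of it. *Cdca8* and *Cdc20* lie on chromosome 4, which was among the chromosomes concerned. Whether such changes affected the values of the genes described here was not tested. The 56 genes lie on 16 chromosomes, with the most, 10, on chromosome 2. Chromosome medians over all placed genes ran from -0.05 (chromosome 10) to 0.18 (chromosome 3). With the median of its chromosome subtracted from each gene, all 56 changes were above 0, the median was 0.97 and 27 genes were called higher, where 4% of the 19899 placed genes were higher and 8.41% lower. The 4 that then lay under 2-fold were *Hmmr* (0.996), *Incenp* (0.93), *Kif20b* (0.95) and *Smc4* (0.90).

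Other genes of mitosis were taken from a list of 123, of which 116 were measured. In that list 24 rose (20.7%) and 3 fell, beside 4.9% and 7.59% of all genes, with a median log2 fold change of 0.56. At the adjusted p alone 83 of the 116 were higher and 15 lower, beside 31.6% and 24.8% of all genes. Of 24 other centromere and kinetochore genes 8 rose (median 0.83), the largest change being that of *Sgol1*, which encodes the shugoshin that protects centromeric cohesin and which read 8.14, 7.96 and 7.86 in M0505 and 9.41, 9.45 and 9.44 in STOSE cells (log2 difference 1.45). Of 21 centrosome and spindle pole genes 5 rose and 1 fell. *Stil*, needed for centriole duplication with Plk4, read 7.18, 6.94 and 6.83 in M0505 and 9.17, 9.14 and 9.10 in STOSE cells (log2 difference 2.15, SE 0.09, adjusted p = 3.65e-07), which is more than any of the 56 genes. *Haus7*, a subunit of the augmin complex that branches spindle microtubules, fell from 9.40, 9.59 and 9.61 to 7.78, 7.96 and 7.79, by 1.69 on the log2 scale (adjusted p = 7.04e-07).

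Of 15 other spindle and cytokinesis genes 5 rose, with *Depdc1a* the largest (log2 fold change 1.84). Of 12 genes that brake or promote entry, 3 rose and 1 fell. Among them *Ccnf*, which encodes cyclin F, read 8.33, 8.10 and 8.11 in M0505 and 9.62, 9.77 and 9.72 in STOSE cells (log2 fold change 1.52). *Gadd45a*, a stress gene that restrains mitotic entry, fell by 1.08 on the log2 scale (SE 0.18, adjusted p = 0.000864), and was under 2-fold without M0505 replicate 1 (-0.95) or without STOSE replicate 2 (-0.98) or 3 (-0.99).

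Other groups held smaller shares of called genes. Of 18 APC/C subunits and regulators 2 rose (11.1%, median 0.18) and 0 fell, beside 4.9% and 7.59% of all genes. At the adjusted p alone 9 of the 18 were higher and 5 lower, beside 31.6% and 24.8% of all genes. The larger rise was that of *Mad1l1*, a checkpoint protein that recruits Mad2 to kinetochores (1.16). None of the 12 cohesin genes was called (median 0.32), and *Cdca5*, which encodes sororin, had the largest log2 fold change, 0.83 (adjusted p = 0.000371). The 3 genes for subunits found only in condensin II were not called either, with *Ncapd3* the largest at 0.57. DREAM and MuvB are complexes that repress mitotic promoters in resting cells or, joined by B-Myb, activate them. Of 11 of their subunits 1 rose (9.09%) and 1 fell, beside 4.9% and 7.59% of all genes. At the adjusted p alone 5 of the 11 were higher and 4 lower, beside 31.6% and 24.8% of all genes. *Lin9* read 7.21, 6.76 and 6.65 in M0505 and 8.41, 8.26 and 8.12 in STOSE cells (log2 difference 1.39, adjusted p = 5.88e-05). *Rbl2*, which encodes the repressor p130, read 7.96, 8.12 and 8.16 in M0505 and 6.84, 7.04 and 7.06 in STOSE cells, and fell by 1.10 on the log2 scale (SE 0.08, adjusted p = 9.52e-06). With each array centred on its median, *Rbl2* (-0.90) and *Gadd45a* (-0.88) were under 2-fold.

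DNA replication genes, which act in S phase, were measured for comparison. Of 41 listed, 37 were measured, and of these 20 rose (54.1%) and 0 fell, beside 4.9% and 7.59% of all genes. Their median log2 fold change was 1.06, close to that of the mitotic genes. The largest change was that of *Gins1*, a subunit of the replicative helicase (log2 fold change 1.60). M0505 replicate 1 was the highest M0505 array in 26 of the 37 (70.3%), beside 36.5% of all genes. No test between the lists was run.

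**Figure D4:**
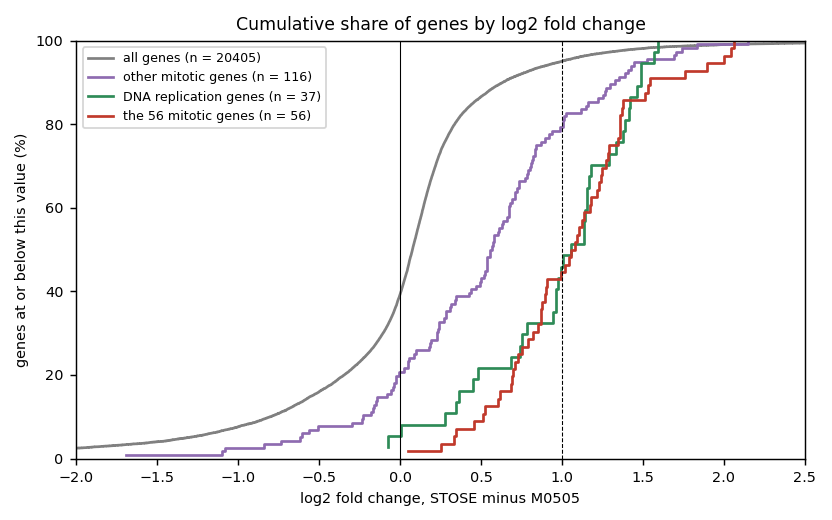
Cumulative share of genes (%) at or below each log2 fold change (STOSE minus M0505) for all 20405 genes, 116 other mitotic genes, 37 DNA replication genes and the 56 mitotic genes; the dashed line marks 2-fold. The curves of the mitotic and replication genes run together, with medians of 1.07 and 1.06, to the right of the other mitotic genes (0.56) and of all genes (0.08).

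The promoter words were frequent among these genes, which is given as a description without a test. A CCAAT box, on either strand, was found in 34 of 48 windows of 300 bases (70.8%), beside 38.3% of 13625 genes on the array. The cell cycle homology region, again on either strand, was found in 36 (75%), beside 23.7%. Both words were found in 29 (60.4%), beside 9.42%. An E2F word (TTTCCCGC, TTTGGCGC, TTTCGCGC or TTTGCCGC) was found in 5 (10.4%), beside 3.00%. None of these words contains another. Median GC content was 58.2% in the members and 57.7% in all these genes.

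**Figure D5:**
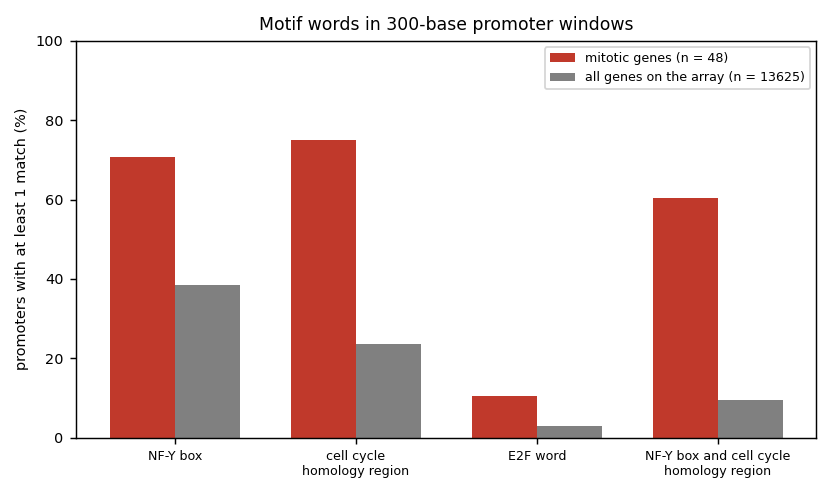
Share of promoter windows of 300 bases (%) with at least 1 match to each motif, on either strand, in 48 mitotic genes (red) and 13625 genes on the array (grey); the NF-Y box is the CCAAT box. Both words together were found in 60.4% of the mitotic genes and 9.42% of all.

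The change between the lines followed these words in no single direction. Genes with a CCAAT box had a median log2 fold change of 0.95 (34 genes) and those without 1.23 (14 genes). For the cell cycle homology region the medians were 1.07 in 36 genes and 0.88 in 12 genes. *Cdk1*, whose stretch above holds 2 CCAAT boxes and 2 homology regions, had the smallest change, and *Cdc20*, with 2 CCAAT boxes and 1 homology region, the second largest. *Mybl2*, with a 4.01-fold rise, was among 7 genes with neither word in the window. These matches are letters in a window and not measured sites.

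Cell identity was checked on marker genes. All 14 OSE markers were above background in both lines, among them *Wt1*, *Upk3b* and *Msln*. In STOSE cells 7 of the 14 were called lower, beside 7.59% of all genes. Log2 fold changes were -5.56 in *Krt19*, -5.01 in *Amhr2* and -4.55 in *Krt8*. At the adjusted p alone 13 of the 14 were lower, beside 24.8% of all genes. These included *Wt1* (-0.63), *Msln* (-0.61) and *Upk3b* (-0.34). Summed linear levels, which the brightest probe sets dominate, ran for the 14 OSE markers from 36618 to 38086 over the M0505 arrays and from 19103 to 19774 over the STOSE arrays. Of 10 leukocyte markers 8 were under background in both lines, *Ptprc* (CD45) included. The genes called on the other cell type lists were *Star* and *Inha* (of 11 granulosa markers), *Kdr* (of 9 endothelial markers), *Cd68* (of the leukocyte markers) and *Col1a2* (of 8 fibroblast markers), which fell, and the fibroblast marker *Thy1*, which rose by 1.49 on the log2 scale. For granulosa markers the sum ran from 3742 to 3783 in M0505 and from 495 to 511 in STOSE cells, for endothelial markers from 997 to 1090 and from 298 to 323, for leukocyte markers from 871 to 1126 and from 280.0 to 317, and for fibroblast markers from 5838 to 6266 and from 5722 to 6054. The part of these shifts in the mitotic genes was not tested.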

How the data were processed

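Total RNA of M0505 and STOSE cells was measured on the Affymetrix Mouse Gene 1.0 ST array, with 3 arrays per line. The authors deposited log2 expression values, normalized with RMA in Affymetrix Expression Console according to the submitters' processing notes and annotated with T4-MEV according to the methods. The annotation release and genome build are not given in the sources used here. The deposited table also holds the authors' averages, ratio and fold change columns, which were not used, and 0 columns of other samples. Of 28944 probe sets, 23530 carried a gene symbol, and 1 probe set per gene with the highest mean left 20405 genes. STOSE was compared with M0505 in limma 3.58.1 (lmFit and eBayes, R 4.3.3) over all 20405 genes, with Benjamini-Hochberg adjustment. Genes were called at an adjusted p under 0.05 and at least 2-fold. On simulated data with 200 changed genes of 20405, 99.5% were recovered with 0 false calls. All planted changes lay well past 2-fold, and the noise was drawn separately for each gene. The simulation therefore does not measure recovery or false calls among genes that vary together, as the members did in M0505. Recovery of genes near the 2-fold threshold, where many of the members lie, was not tested separately. Background was the 95th percentile of 1134 olfactory receptor probe sets. Chromosomes (19899 genes, 97.5%) and promoters came from RefSeq tables of GRCm38.p6, matched by symbol. The members and lists were chosen with earlier results of these data known. All members could be named. From the other lists the rule named genes called lower and the gene of each sublist with the largest change, and from the marker lists genes above background, to which *Ptprc* was added after its values were seen. Alternatives covered normalization, dim genes, probe sets, the methods' t-test, limma with trend, fold thresholds, chromosome medians, the replicate block and leaving out each array.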

Additional observations from a re-analysis of the deposited data

How the results depend on the processing

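Counts rest on the fold threshold. At 1.5-fold, 49 of the 56 genes and 2245 of all 20405 were called higher, with 54 higher and 7 lower on the list of other mitotic genes. At 3-fold, 5 of the 56 and 325 of all genes were called higher, with 5 higher and 1 lower on the other list and 1 DNA replication gene. With each array centred on its median, the median log2 fold change of the 56 rose from 1.07 to 1.27 and that of all genes from 0.08 to 0.28, the distance between them being 0.99 in both. Over all genes, 1466 were then called higher and 1177 lower, against 1000 and 1548, 40 of the 56 were called higher, and of the other mitotic genes *Haus7* was the 1 still called lower but not *Rbl2* (-0.90) or *Gadd45a* (-0.88). Leaving out each array in turn gave 29 to 34 of the 56 called higher, 21 to 26 higher and 2 to 3 lower on the other list, 18 to 22 DNA replication genes, and medians from 1.02 to 1.13. Over 17 alternatives at 2-fold, 26 of the 56 genes were called in all, 15 in none and 15 in some. *Ccnb1*, *Plk1* and *Ncapd2* were past 2-fold without M0505 replicate 1 (1.09, 1.01 and 1.00), and *Ccnb1* also without STOSE replicate 3 (1.02). With the lowest probe set of each gene, *Kif14* gave 0.21 and *Top2a* 1.16. None of the 56 log2 fold changes changed sign under any alternative. Whether the replicate numbers pair the arrays is not stated in the sources used here. Deviations of same-numbered arrays correlated at 0.26, 0.04 and 0.25, and those of the other pairs from -0.29 to 0.12. STOSE replicates 1 and 3 correlated best with the M0505 array of the same number. STOSE replicate 2 correlated best with M0505 replicate 3 (0.12). With the replicate block, 31 of the 56 genes were called higher, as without it, and over all genes 1001 were called higher and 1548 lower. All members were above the background level, and whether the level of a probe set affected the size of its change was not tested.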
